A study of Arabidopsis thaliana with 9 samples.

Results

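Annotated retained introns are introns that at least one annotated transcript of *Arabidopsis thaliana* splices out and another keeps inside an exon. They were all the bins of the class IR (intron retention) in the tables of alternative splicing (AS) counts, which made 2230 of the 7973 AS bins and fell in 2020 genes, 1838 of them with 1 such bin and 182 with 2 or more. In the RefSeq annotation used here, 2085 of the 2230 were both an exact intron and inside an exon. The bins were not all typical introns, since 93 were under 40 bases, of which 34 had GT-AG ends, and the shortest had 2 bases. All were kept. RNA-seq was done on whole plants of the Columbia ecotype, with 3 libraries each of wild type (WT), the single mutant *prmt5* (allele *prmt5-5*) and the double mutant *prmt4a;4b*, made by crossing T-DNA insertion lines of *PRMT4A* and *PRMT4B*. All plants were grown on Murashige and Skoog medium with 0.8% agarose, kept for 4 d at 4 °C in the dark and then at 22 °C in continuous light, and the labels give the harvest at 15 d while the methods give a younger age. Each mutant was compared with the same 3 WT libraries, and each mutant is represented by a single line. Whether replicates were separate cultures is not stated, so p-values measure the spread between these libraries only.

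PRMT5 and PRMT4 (CARM1) are protein arginine methyltransferases. PRMT5 makes symmetric dimethylarginine, among others on Sm proteins of the spliceosome, and PRMT4 makes asymmetric dimethylarginine on RNA-binding and chromatin proteins. Intron retention is the most common form of AS in plants. A retained intron inside the coding sequence can introduce a premature stop codon, or it can be read through when its length keeps the frame and it holds no stop, in which case it acts as part of an exon.

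The sequences of 8 coding retained introns that carry the comparisons below are given first, each 5′ to 3′ from the RefSeq genome of TAIR10 coordinates. Capitals mark the first 6 bases (donor side), the last 3 bases (acceptor side) and, where the annotated frame meets one, the first in-frame stop codon.
*PHOT2* AT5G58140:E024, chr5:23529219-23529316, plus strand: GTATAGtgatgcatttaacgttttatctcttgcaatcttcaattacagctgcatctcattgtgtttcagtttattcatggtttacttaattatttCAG
*APL* AT1G79430:E006, chr1:29878871-29878960, minus strand: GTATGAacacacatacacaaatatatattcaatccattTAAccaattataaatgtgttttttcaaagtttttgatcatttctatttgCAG
*YAB3* AT4G00180:E007, chr4:74868-74975, minus strand: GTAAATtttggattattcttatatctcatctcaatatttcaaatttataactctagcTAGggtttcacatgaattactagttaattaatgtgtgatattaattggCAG
*CER1* AT1G02205:E005, chr1:419530-419674, plus strand: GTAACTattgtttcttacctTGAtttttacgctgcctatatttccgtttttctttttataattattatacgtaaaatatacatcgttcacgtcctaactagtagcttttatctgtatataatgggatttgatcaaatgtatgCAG
*PMDH2* AT5G09660:E003, chr5:2993905-2993977, minus strand: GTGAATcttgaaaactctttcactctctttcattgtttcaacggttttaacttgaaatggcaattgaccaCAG
*ABI2* AT5G57050:E002, chr5:23087802-23087921, plus strand: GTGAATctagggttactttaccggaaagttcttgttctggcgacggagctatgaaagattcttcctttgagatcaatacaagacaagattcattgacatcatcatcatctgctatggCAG
*GRP7* AT2G21660:E002, chr2:9265665-9265715, minus strand: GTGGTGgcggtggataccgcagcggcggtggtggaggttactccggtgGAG
*AT3G24080* AT3G24080:E003, chr3:8695281-8695304, minus strand: GCTGAGgctgaggctgaggctGAG
The first 4 hold an in-frame stop codon, which in *PHOT2* E024 starts at base 4 of the intron. The other 4 hold none, and *AT3G24080* E003 begins with GC in place of GT.

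Gene reads per library numbered 25029646 to 31835579 in WT, 28137176 to 29706081 in *prmt4a;4b* and 31917097 to 39904677 in *prmt5*, the deepest of the genotypes. Plastid-encoded transcripts took 0.323 to 0.58% of gene reads in WT, and more in the mutants (*prmt5* 0.604 to 2.1%, *prmt4a;4b* 0.869 to 3.94%). *PRMT4A* and *PRMT4B* reads were lower in every *prmt4a;4b* library (32.3 to 68.6 against 321 to 343 normalised counts in WT for *PRMT4A*, and 17.4 to 33.8 against 360 to 396 for *PRMT4B*). *PRMT5* reads were not lower in *prmt5* (781 to 1016 against 681 to 728 normalised counts in WT), so the gene-level count does not check that label. Summed green tissue markers stood at 24141 to 36269 CPM over the 9 libraries. Root markers stood at 108 to 176 CPM. Single root markers went both ways in *prmt5*. *EXP7*, a root hair expansin, stood at 2.80 to 5.76 CPM in WT and 7.98 to 15.3 in *prmt5*. *WOX5*, a gene of the root stem cell niche, was low in both, at 0.112 to 0.186 and 0.492 to 0.872. *SCR* was lower, at 32.4 to 36.6 and 28.7 to 32.0. The ranges overlapped for *IRT1* (36.5 to 57.4 and 19.8 to 37.5), *PHT1;1* (53.6 to 78.2 and 49.9 to 66.0) and *COBL9* (2.19 to 3.91 and 3.38 to 5.93). Floral organ markers were near 0, at 4.5 to 5.86 CPM in WT, 3.02 to 5.38 in *prmt5*, and 0.830 to 2.76 CPM in *prmt4a;4b*. Seed storage markers stood at 105 to 178 CPM in WT and 55.2 to 70.5 CPM in *prmt4a;4b*, while *prmt5* replicate 1 had 263 CPM and the other *prmt5* libraries 29.8 and 64.9. The part of such differences, and of the plastid share, in the results was not tested.

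Retention was expressed as the splicing index, the reads per base of the bin over the reads per base of its gene, in each library. It was read for the 1742 retained introns whose gene had a density over 0.05 reads per base in all 3 genotypes. Of all 2230, 155 had no read in any library and 1415 averaged 5 or more reads in some genotype. The median index in WT was 0.15, 0.160 and 0.170 in the 3 libraries, with lower quartiles of 0.0251 to 0.0322 and upper quartiles of 0.721 to 0.851. By contrast, the 81663 introns outside annotated events had WT medians of 0 to 0.00824. Values over 1 occurred in 20.9 to 22.6% of the retained introns in WT. How reads that lie partly in a bin were counted is not given in the sources used here, and with densities taken over the width plus the read length minus 1 base the WT medians were 0.0820 to 0.0929, with 11.4% of values over 1.

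The level in WT fell with width. The mean of the WT library medians was 0.306 for the 559 retained introns of up to 85 bases, 0.140 for the 636 of 86 to 120 bases, 0.127 for the 413 over 120 and up to 300 bases and 0.0577 for the 134 longer ones. Allowing for read length, the same 4 classes stood at 0.13, 0.0721, 0.0849 and 0.0507, so the order of the middle classes changed. Gene level made less difference in WT, with means of 0.178, 0.149, 0.151 and 0.169 from the lowest to the highest quartile of WT gene density. The 44 GC-AG introns had a WT mean of 1.69, against 0.146 for the 1630 GT-AG introns. GC-AG ends made 2.24% of all retained introns and 0.910% of introns outside annotated events.

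The level in WT also went with the coding effect. The 742 introns with an in-frame stop had WT medians of 0.0773, 0.0898 and 0.0733, the 124 that shift the frame without a stop 0.271, 0.199 and 0.348, and the 253 that are a multiple of 3 without a stop 0.826, 0.894 and 0.886. On this index, which does not allow for read length, the last group was read at nearly the density of its genes. Its median width was 87 bases. Allowing for read length lowered the short width classes most, and was not done by coding effect. An in-frame stop was found in 65.2% of all retained introns whose frame could be read and in 89.5% of such introns outside annotated events. Among retained introns with a WT index over 0.5 the share was 37.4%.

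Both mutants had higher median indexes than every WT library. The medians were 0.301, 0.281 and 0.275 in the *prmt5* libraries and 0.226, 0.264 and 0.261 in the *prmt4a;4b* libraries. The mutants did not overlap with WT, and their ranges did not overlap with each other. The same held with the width plus the read length minus 1 base (0.0820 to 0.0929 in WT, 0.122 to 0.143 in *prmt4a;4b*, 0.145 to 0.160 in *prmt5*). From the lowest to the highest quartile of gene density the mean of the medians was 0.178, 0.149, 0.151 and 0.169 in WT. In *prmt5* it was 0.351, 0.309, 0.235 and 0.231, beside 0.293, 0.261, 0.232 and 0.222 in *prmt4a;4b*. From the shortest to the longest class the means were 0.483, 0.239, 0.238 and 0.108 in *prmt5*, beside 0.471, 0.211, 0.198 and 0.0992 in *prmt4a;4b*, so the order by width was that of WT. Reads in all retained introns did not take a larger share of raw gene reads, with 0.813 to 0.883% in WT, 0.790 to 0.881% in *prmt5*, and 0.735 to 0.834% for *prmt4a;4b*. Those raw totals are not adjusted for the makeup of the libraries. The TMM scaling factors, which make that adjustment, were 1.07 to 1.18 in WT, 0.940 to 1.01 in *prmt5* and 0.878 to 1.02 in *prmt4a;4b*. The raw share therefore does not show whether these reads rose on the adjusted scale. The share also weights each intron by its reads, whereas the medians give each intron the same weight.

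**Figure D1:**
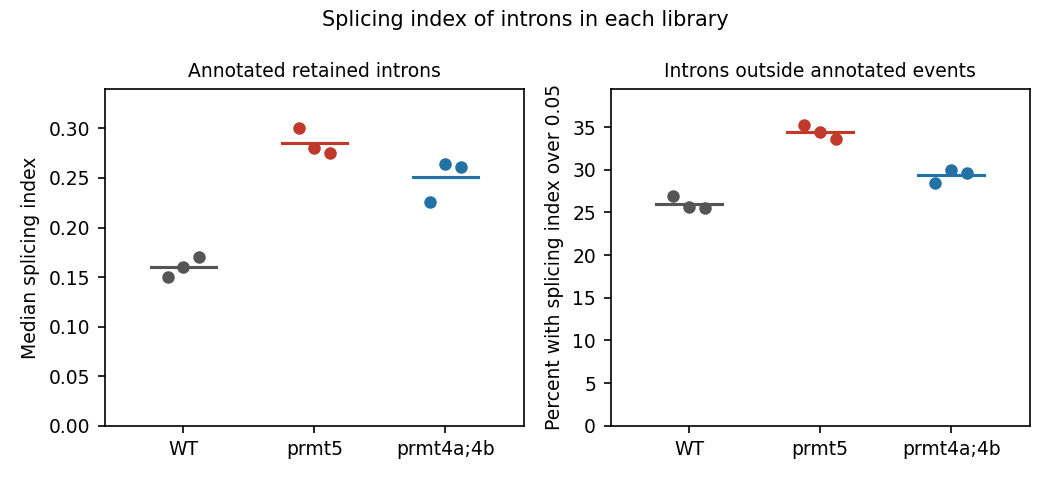
Points are single libraries and lines are the means of 3 libraries. The left panel plots the median splicing index over 1742 annotated retained introns, where the WT libraries (0.15 to 0.170) lie below all mutant libraries (0.226 to 0.301), and the right panel plots the percent of 81663 introns outside annotated events with an index over 0.05, which was 25.6 to 26.9% in WT, 28.4 to 30.0% in *prmt4a;4b* and 33.6 to 35.3% in *prmt5*.

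The medians differed by the kind of retained intron. Introns with an in-frame stop stood at 0.109 to 0.115 in *prmt4a;4b* and 0.145 to 0.148 in *prmt5*, both above the WT range of 0.0733 to 0.0898 and apart from each other. Introns that are a multiple of 3 without a stop stood at 0.863 to 0.973 and 0.921 to 0.992, and the *prmt5* range overlapped with that of WT (0.826 to 0.894). In 5′ UTRs the WT medians of 0.119 to 0.169 compared with 0.220 to 0.284 in *prmt4a;4b* and 0.268 to 0.356 in *prmt5*. In 3′ UTRs the order of the mutants was the opposite, with 0.248 to 0.299 in WT, 0.318 to 0.419 in *prmt5*, and *prmt4a;4b* at 0.445 to 0.461.

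**Figure D2:**
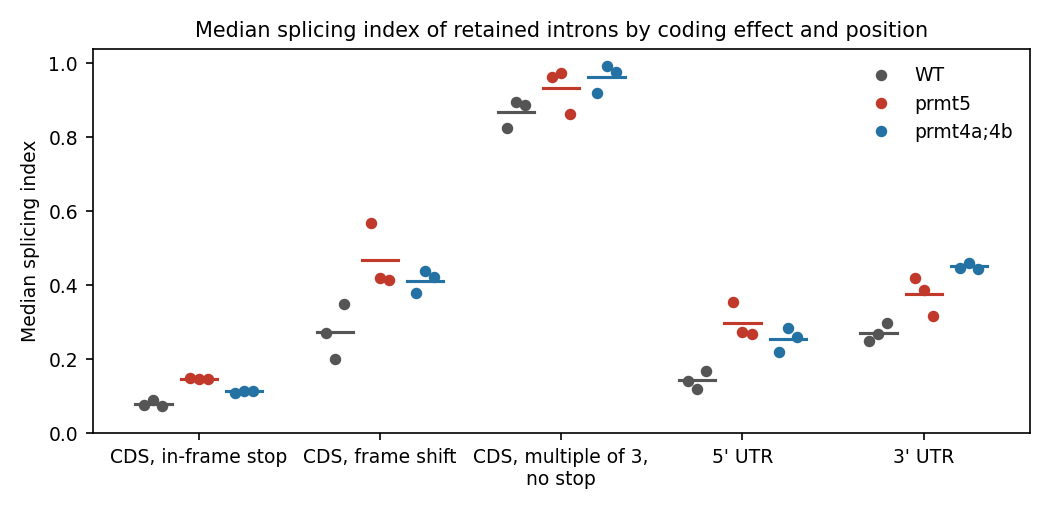
Median splicing index per library (points) and mean of 3 libraries (lines) for retained introns grouped by their effect on the reading frame and by position. Coding introns with an in-frame stop were lowest in WT (0.0733 to 0.0898) and those that keep the frame without a stop were highest (0.826 to 0.894), and in 3′ UTRs the *prmt4a;4b* libraries (0.445 to 0.461) lay above the *prmt5* libraries (0.318 to 0.419).

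Single events were tested with edgeR on the counts of all AS bins. A call needed an adjusted p under 0.15 (Benjamini-Hochberg), a log2 change of reads beyond 0.58 and a log2 ratio of splicing indexes beyond 0.58 in the same direction, limits taken from the methods of the study. Tests were limited to events that averaged 5 or more reads and an index over 0.05 in at least 1 of the compared genotypes, in genes over 0.05 reads per base in both, which 1209 events met for *prmt5*, 1091 for *prmt4a;4b* and 1210 for the direct comparison of the mutants, while 959 of the 2230 were tested in none. The 98 events tested for *prmt5* and 49 tested for *prmt4a;4b* whose WT index was at or under 0.05 entered through the mutant and could differ in 1 direction only. Of them 69 and 23 rose. Among the events named below, this holds in *prmt5* for *AT5G40810* E003, *AT1G24510* E009, *CER1* E005, *YAB3* E007, *LHY* E015 and *RS2Z33* E005. It holds in *prmt4a;4b* for *PHOT2* E020, and in both mutants for *AT4G38520* E005 and *AT5G55550* E011. Events with a higher WT index but a mean under 5 WT reads also entered through the mutant, and are not counted in the 98 and 49. *APL* E006, with 4, 6 and 0 WT reads, is such a case in *prmt5*. The p-values of all these events against WT are to be read with that limit.

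In *prmt5*, 278 retained introns (23.0%) rose and 69 (5.71%) fell, beside 15.7% and 12.4% of all AS bins and 33.2% and 7.19% of the introns outside annotated events. Restricted to a WT index over 0.05, 209 of 1111 retained introns rose (18.8%) and 69 fell (6.21%), beside 19.5% and 9.85% of such other introns. The median log2 change of the index over the tested events was 0.42, beside 0.68 over the introns outside annotated events. Over the 520 retained introns with at least 20 WT reads, a filter that does not use the mutants, it was 0.12, beside 0.07 over 2948 other introns.

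Single events are given first by the size of their log2 index change, among called events whose reads averaged 50 or more in the higher genotype and whose libraries did not overlap. The event ranked first in *prmt5* under these conditions was in *AT5G40810*, a gene of the cytochrome c1 family of the respiratory chain. The 329-base coding intron AT5G40810:E003 had no read in any WT library, 77, 72 and 57 reads in the *prmt5* libraries and 5, 2 and 1 in the *prmt4a;4b* libraries. Its index was 0.140, 0.0987 and 0.0798 in *prmt5*, where the event was called (edgeR, adjusted p = 5.4e-07), and was at most 0.0148 in *prmt4a;4b*. No fold against WT is given, since its libraries were all at 0, and reads were 4.28 ± 0.52 (log2, SE) higher than in *prmt4a;4b* (edgeR, adjusted p = 1.8e-05).

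*PHOT2*, a blue-light receptor kinase for phototropism and chloroplast movement, came next. The index of *PHOT2* E024, 98 bases with the in-frame stop shown above, was 0.140, 0.0186 and 0.107 in WT, 2.37, 1.95 and 1.95 in *prmt5*, with 0.129, 0.0226 and 0.113 in *prmt4a;4b*. WT and *prmt4a;4b* overlapped and all *prmt5* libraries lay far above them. Reads rose by 4.68 ± 0.40 (log2, SE) in *prmt5* (edgeR, adjusted p = 2.3e-07), while the other introns of *PHOT2* together moved by 0.19 on the log2 index scale and the gene by 0.11. Against *prmt4a;4b* the difference was 5.39 ± 0.46 (edgeR, adjusted p = 1.1e-07). The event entered that test through *prmt5*, since its *prmt4a;4b* reads averaged under 5.

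*APL*, a MYB-type factor needed for phloem identity, had an index for E006 of 0.12, 0.147 and 0 in WT, 1.14, 1.2 and 0.953 in *prmt5*, with 0.0519, 0 and 0 in *prmt4a;4b*. The index of 0 was in the WT library of replicate 3, and no *prmt5* library overlapped with the others. Its reads rose by 4.36 ± 0.49 in *prmt5* (edgeR, adjusted p = 5.2e-06), with the gene up by 0.85, and the other introns of *APL* stood at -0.89 on the log2 index scale. *YAB3*, a YABBY factor of the lower leaf side, had 1, 2 and 3 reads in E007 in WT, 57, 85 and 60 in *prmt5*, with 0, 5 and 6 in *prmt4a;4b*. The gene itself rose by 1.53 in *prmt5*, yet the index of E007 went from 0.0114 to 0.0307 in WT up to 0.186 to 0.247, and its reads rose by 4.82 ± 0.48 (edgeR, adjusted p = 9.9e-07). *CER1*, which makes the alkanes of leaf wax, had an index for E005 of 0.0256, 0.00599 and 0.0236 in WT and 0.253, 0.292 and 0.205 in *prmt5*, with 0.0666, 0 and 0.0337 in *prmt4a;4b*. The *prmt5* libraries stood apart, with reads up by 4.45 ± 0.49 (edgeR, adjusted p = 4.3e-06) and the gene up by 0.66.

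The same order was found in *AT1G24510*, a gene of the TCP-1 chaperonin family, where E009 (213 bases) had 2, 2 and 1 reads in WT, 59, 81 and 60 in *prmt5*, with 0, 2 and 2 in *prmt4a;4b*. The reads of *AT1G24510* E009 rose by 5.07 ± 0.47 (edgeR, adjusted p = 5.4e-07) whereas the gene was not called. In *GLX2-1*, of the glyoxalase 2 family, E009 (380 bases) had an index of 0.0507, 0.153 and 0.162 in WT, 1.93, 1.51 and 1.61 in *prmt5*, with 0.347, 0.318 and 0.622 in *prmt4a;4b*. The increase of 4.43 ± 0.35 passed in *prmt5* (edgeR, adjusted p = 1.2e-07), and that of 1.03 ± 0.57 in *prmt4a;4b* did not (edgeR, adjusted p = 0.17). *AT2G35390*, of the phosphoribosyltransferase family, had a similar intron (E008, 330 bases) at 0.0381 to 0.0890 in WT, 0.449 to 0.857 in *prmt5* and 0.132 to 0.204 in *prmt4a;4b*.

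*AT3G17100*, a DNA-binding transcription factor, differed in that both mutants were high. Its 5′ UTR intron E003 (82 bases) had an index of 0.0839, 0.0334 and 0.0692 in WT, 1.03, 0.748 and 0.539 in *prmt5*, with 0.441, 0.7 and 0.688 in *prmt4a;4b*. Both mutants lay above WT and overlapped with each other. Reads rose by 2.91 ± 0.44 in *prmt5* (edgeR, adjusted p = 1.5e-04) and 2.56 ± 0.48 in *prmt4a;4b* (edgeR, adjusted p = 6.0e-04), although the gene fell by 0.73 and 0.74. Its donor site was cagGTAATT, with the first 6 intron bases in capitals.

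Under the same conditions the decreases in *prmt5* were smaller. The largest of them was in *PMDH2*, a peroxisomal malate dehydrogenase, whose 73-base intron E003 had an index of 0.0976, 0.106 and 0.103 in WT, 0.0214, 0.0384 and 0.0279 in *prmt5*, with 0.0293, 0.0167 and 0.0377 in *prmt4a;4b*. Both mutants lay below WT, with reads falling by 2.11 in *prmt5* (edgeR, adjusted p = 4.8e-05) and by 2.04 in *prmt4a;4b* (edgeR, adjusted p = 1.3e-04). *FLDH*, a farnesol dehydrogenase gene, had an index for E003 of 2.73, 3.72 and 1.94 in WT, 0.940, 0.866 and 1.03 in *prmt5*, with 0.898, 1.2 and 1.26 in *prmt4a;4b*, again without overlap of WT and mutants. The others named by the same rule were AT2G11910:E004 in a 5′ UTR, *EIP9* E008, in a gene of the DnaJ chaperone superfamily, and AT3G53980:E003, 25 bases in a 3′ UTR of a gene of the lipid-transfer superfamily, with log2 index changes of -1.67, -1.30 and -1.27 in *prmt5*.

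In *prmt4a;4b*, 253 retained introns (23.2%) rose and 79 (7.24%) fell, beside 18.5% and 14.6% of all AS bins and 15.3% and 10.4% of the introns outside annotated events. With a WT index over 0.05, 230 of 1042 rose (22.1%) and 79 fell (7.58%), against 10.2% and 12.3% of such other introns. The median log2 change of the index was 0.36, beside 0.22 over the introns outside annotated events. It was 0.11 over the 520 retained introns with at least 20 WT reads, beside -0.07 over 2948 other introns.

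The 8 largest increases in *prmt4a;4b* under these conditions included introns of 5′ UTRs, 3′ UTRs and coding sequence. Called events with fewer reads lay outside them, among them *AT3G17100* E003 and *PHOT2* E020, whose log2 index changes of 3.27 and 2.64 were above the 2.54 of AT3G53670:E003, the highest of the 8. AT3G53670:E003, which overlaps the gene AT3G53668 so that its reads cannot be assigned without strand, had an index of 0.233, 0.275 and 0.661 in WT, 2.15, 1.79 and 1.49 in *prmt5*, with 2.18, 1.90 and 2.24 in *prmt4a;4b*. WT was below both mutants, which overlapped with each other. *AT4G19160*, of the transglutaminase family, had a 290-base coding intron E003 at 0.256, 0.117 and 0.429 in WT, 0.714, 0.654 and 0.740 in *prmt5*, with 1.09, 1.16 and 1.02 in *prmt4a;4b*. The 3 genotypes did not overlap, and the double mutant was higher than *prmt5* by 1.16 (log2 reads, edgeR, adjusted p = 0.015). Its call in *prmt5* (edgeR, adjusted p = 0.067) was lost without *prmt5* replicate 1 or without WT replicate 1 or 2 (adjusted p = 0.17, 0.18 and 0.28), and that between the mutants without *prmt5* replicate 2, where the log2 index ratio was -0.58.

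*AT4G38520*, of the protein phosphatase 2C family, had a 5′ UTR intron E005 with 21, 22 and 11 reads in WT, 57, 39 and 46 in *prmt5*, with 88, 132 and 120 in *prmt4a;4b*. Its index was 0.117 to 0.147 in *prmt4a;4b*, above the other libraries (0.0204 to 0.0671), and reads rose by 2.91 ± 0.30 (edgeR, adjusted p = 2.2e-06). *PLC2*, a phosphoinositide phospholipase C gene, had an index for the 3′ UTR intron E003 of 0.476, 0.434 and 0.663 in WT, 1.27, 1.13 and 1.33 in *prmt5*, with 1.34, 2.36 and 1.72 in *prmt4a;4b*. The remaining 4 were AT5G35680:E002, AT1G80780:E004, AT2G24420:E016 and AT1G09130:E004, with log2 index increases of 2.03, 2.02, 1.78 and 1.76, the last of them not matching an intron of a RefSeq transcript.

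Of the 5 largest decreases in *prmt4a;4b* under these conditions, *PMDH2* was already given. *AT3G53980* E003 had an index of 2.70, 2.93 and 2.64 in WT, 0.691, 1.56 and 1.39 in *prmt5*, then 0.501, 0.574 and 0.536 in *prmt4a;4b*, and the 3 genotypes did not overlap. In *AT5G61910*, of the DCD (development and cell death) domain family, E007, 94 bases without a stop, had an index of 3.77, 2.45 and 3.74 in WT and 1.1, 0.788 and 0.862 in *prmt4a;4b*, with 1.13, 1.40 and 2.19 in *prmt5*. *CCR1* E006, 55 bases in the lignin gene cinnamoyl-CoA reductase 1, fell from 1.83, 1.67 and 1.12 to 0.363, 0.607 and 0.562 and overlaps the gene AT1G15960. *TRM3* E005, in a gene of the LONGIFOLIA family, fell from 2.73, 2.37 and 3.37 to 1.09, 0.787 and 1.05. Each of these stood below WT in every *prmt4a;4b* library. The log2 changes of reads were -1.93 for *AT3G53980*, -1.67 for *AT5G61910*, -1.04 for *CCR1* and -1.53 for *TRM3*.

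**Figure D3:**
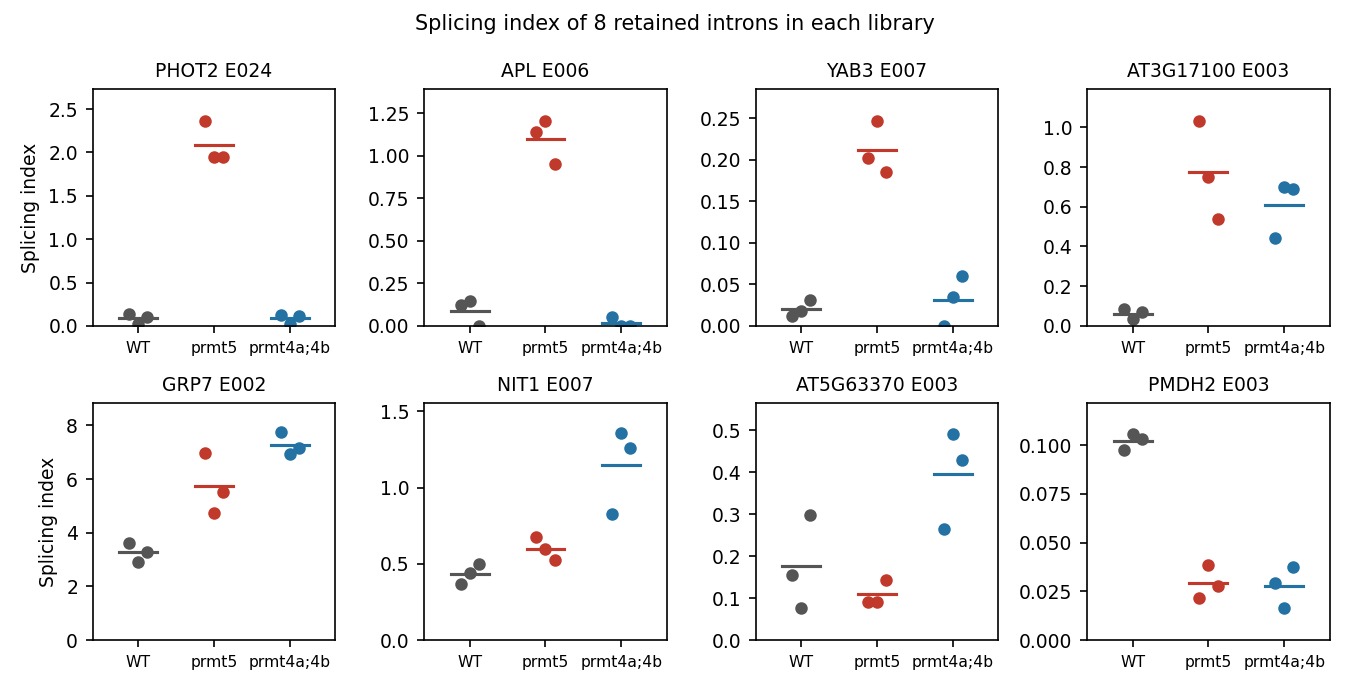
Splicing index (linear axes from 0) of 8 retained introns in each of 9 libraries (points), with the mean of 3 libraries as a line. *PHOT2*, *APL* and *YAB3* were high in *prmt5* alone, *AT3G17100* and *GRP7* in both mutants, *NIT1* in *prmt4a;4b*, *AT5G63370* in *prmt4a;4b* with 1 WT library inside its range, and *PMDH2* was lower in both mutants.

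The mutants were also compared directly, which uses no WT control in the contrast. Of 1210 events, 109 (9.01%) were higher in *prmt5* and 37 (3.06%) higher in *prmt4a;4b*, beside 7.28% and 3.38% of all AS bins and 22.6% and 2.93% of the introns outside annotated events. The median log2 difference was 0.03 over retained introns and 0.39 over the other introns. The difference between these classes of introns was not tested.

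Among the events higher in *prmt4a;4b*, *AT5G63370*, of the protein kinase superfamily, had a 138-base 3′ UTR intron E003 with an index of 0.155, 0.0775 and 0.299 in WT, 0.0916, 0.0906 and 0.144 in *prmt5*, with 0.266, 0.492 and 0.428 in *prmt4a;4b*. WT overlapped with *prmt5* and, through 1 library, with *prmt4a;4b*, and the mutants differed by 2.35 ± 0.43 (log2 reads, edgeR, adjusted p = 0.0010). *NIT1*, a nitrilase that can release auxin from indole-3-acetonitrile, had an index for the 3′ UTR intron E007 of 0.368, 0.441 and 0.498 in WT, 0.676, 0.600 and 0.525 in *prmt5*, with 0.826, 1.36 and 1.26 in *prmt4a;4b*. *NIT1* has related nitrilase genes, and how reads that map to several genes were counted is not given in the sources used here. *AT3G24080*, of the KRR1 family of ribosome assembly, had 111, 157 and 118 reads over the 24 bases shown above in WT, 212, 194 and 205 in *prmt5*, with 244, 263 and 290 in *prmt4a;4b*. Its index was 14.6 to 17.4 in *prmt4a;4b*, above the 6.65 to 11.2 of the other libraries, and its call between the mutants (edgeR, adjusted p = 0.040) was lost without *prmt5* replicate 2 or *prmt4a;4b* replicate 3 (0.20 and 0.16). *AT3G51370*, of the protein phosphatase 2C family, and *AT4G38520* completed the 5. E003 of *AT3G51370* had an index of 0.282, 0.218 and 0.389 in WT, 0.440, 0.434 and 0.324 in *prmt5*, with 0.506, 0.787 and 0.855 in *prmt4a;4b*.

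The called shares of the mutants differed more by position in the transcript than by width or gene level. In 3′ UTRs, 27 of 147 retained introns rose in *prmt5* (18.4%) and 58 of 147 in *prmt4a;4b* (39.5%), and the direct comparison called 3 of 151 higher in *prmt5* and 10 higher in *prmt4a;4b*. In coding sequence, 143 of 660 rose in *prmt5* (21.7%) and 90 of 573 in *prmt4a;4b* (15.7%), and the direct comparison called 75 of 662 higher in *prmt5* and 15 higher in *prmt4a;4b*. In 5′ UTRs the shares were 32.9% and 33.0%. By width class the shares that rose were 20 to 28.6% for *prmt5* and 21.6 to 26.0% for *prmt4a;4b*, and by quartile of gene level 17.5 to 26.5% and 18.4 to 27.4%. All these shares include the 98 events in *prmt5* and 49 in *prmt4a;4b* that entered through the mutant, of which 69 and 23 rose. The filter thus sets part of the shares, and none was taken by position for a WT index over 0.05 alone.

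**Figure D4:**
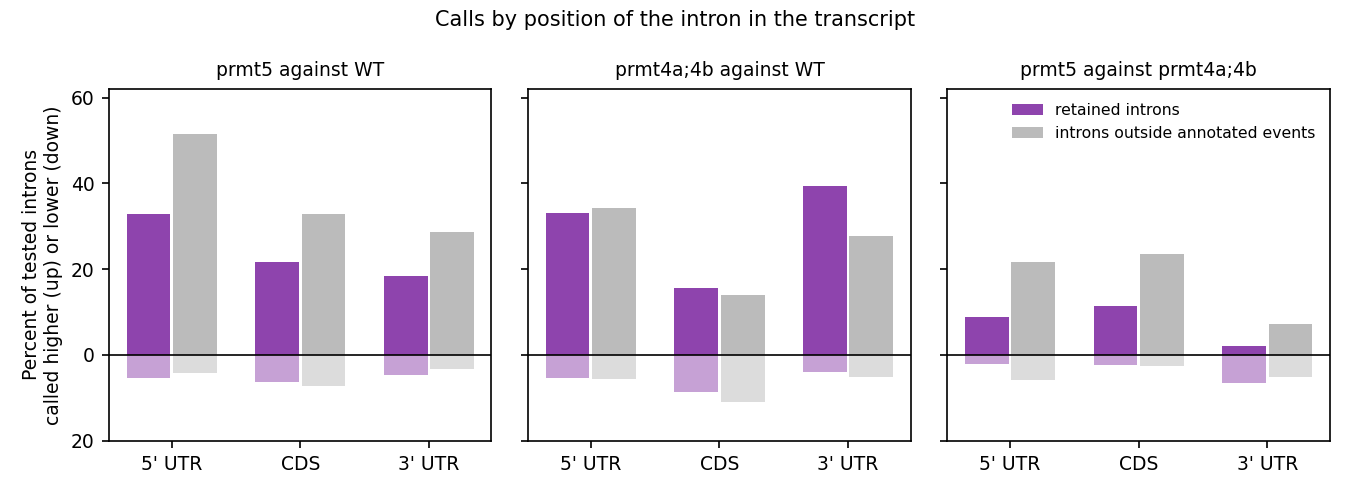
Bars above 0 give the percent of tested introns called higher and bars below 0 the percent called lower, for the first genotype of each title against the second. Purple bars are annotated retained introns and grey bars introns outside annotated events. In 3′ UTRs 39.5% of the retained introns rose in *prmt4a;4b* and 18.4% in *prmt5*.

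Introns outside annotated events gave the background to these shares. In 3′ UTRs 28.7% of them rose in *prmt5* and 27.7% in *prmt4a;4b*, and in coding sequence 32.9% and 13.9%. Retained introns with an in-frame stop rose in 118 of 430 cases in *prmt5*, beside 58 of 351 in *prmt4a;4b*, and the direct comparison called 58 of 433 higher in *prmt5* and 8 higher in *prmt4a;4b*. Introns that are a multiple of 3 without a stop rose in 21 of 189 and 27 of 181 and fell in 14 and 21. These shares too include events that entered through the mutant and could only rise. Genes are not replicates, and no test was made between these classes.

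The donor site of the retained introns that rose in *prmt5* departed from the common bases at the end of the exon. A at position -2 and G at position -1, counted back from the first intron base, were present in 41.7% and 60.1% of the 278 that rose, in 56.4% and 72.9% of the 862 not called and in 60.9% and 72.5% of the 69 that fell. In *prmt4a;4b* the 253 that rose held them in 53.4% and 66.8% and the 759 not called in 55.2% and 71.5%. The 109 events higher in *prmt5* than in *prmt4a;4b* held them in 35.8% and 59.6%. Among introns outside annotated events the shares were 50.2% and 65.2% in the 4950 that rose in *prmt5* and had a sequence, and 67.4% and 82.8% in the 8869 not called. *PHOT2* E024 (cctGTATAG), *CER1* E005 (cttGTAACT) and *YAB3* E007 (gctGTAAAT) lacked both bases, while *AT3G17100* E003 (cagGTAATT), which also rose in *prmt5*, carried both. Of events that rose in *prmt4a;4b*, *AT5G63370* E003 (gagGTATGG), *AT4G38520* E005 (aagGTAAAG), *AT1G80780* E004 (cagGTTCGA) and *AT2G24420* E016 (gagGTATCT) carried both. *AT4G19160* E003 (tggGTAAAT) and *AT3G53670* E003 (gtgGTAATC) carried the G without the A, and *PLC2* E003 (aatGTATGC) the A without the G. *AT5G35680* E002 (gttGTTGGT) and *AT1G09130* E004 (agcGTAGTA) carried neither. Of those with both only *AT4G38520* E005 also rose in *prmt5*, while all of these others did. Not all the other named events that rose in *prmt4a;4b* followed this split. Of those with both bases, *AT3G17100* E003, *GRP7* E002 and *FY* E021 also rose in *prmt5*. *AT3G24080* E003, *AT3G51370* E003, *MAF1* E007 and *AT1G25098* E004 were not called there, and *PHOT2* E020 was not tested. *NIT1* E007 and *AT3G54500* E009 lacked the G and were not called in *prmt5*, while *HAB1* E007 lacked it and rose.

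For each event the other introns of its gene were summed where they held enough reads. For the 214 such events that rose in *prmt5* the other introns had a median log2 index change of 0.57, against 1.68 for the events. Beside the 616 such events not called it was 0.51, and beside events that fell 0.52. These are counts of events, so a gene can enter more than once. In *prmt4a;4b* the medians of the other introns were 0.33, 0.29 and 0.28 beside events that rose, were not called and fell. In the direct comparison of the mutants they were 0.25, 0.28 and -0.01 beside events higher in *prmt5*, not called and lower.

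**Figure D5:**
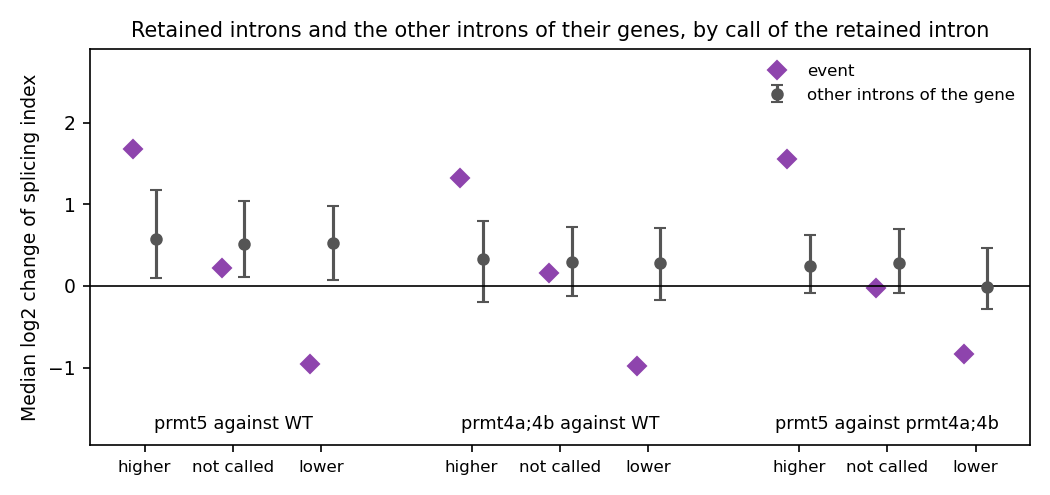
Diamonds are the median log2 change of the splicing index of retained introns, whose sign the call fixes. Circles are the median over the summed other introns of the same genes, with quartiles as bars, and stand between 0.51 and 0.57 in *prmt5* and between 0.28 and 0.33 in *prmt4a;4b* for all 3 calls, and between -0.01 and 0.28 in the direct comparison.

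The host gene was mostly not called. Of the 278 events that rose in *prmt5*, 42 lay in genes that rose, 17 in genes that fell and 219 in genes not called (adjusted p under 0.10 and log2 change beyond 0.58). Of the 69 that fell, 0 lay in genes that rose, 13 in genes that fell and 56 in genes not called. Of all genes tested in *prmt5*, 12.1% rose and 14.0% fell. Of the 253 that rose in *prmt4a;4b* the counts were 31, 14 and 208, and of the 79 that fell they were 3, 15 and 61, beside 13.6% of all genes that rose and 12.2% that fell. A call of an event needed a change of its reads in the same direction, so the gene's change is part of what the call measures.

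Genes of splicing, the clock, flowering, light and stress held few retained introns. Over their 3 to 8 tested events the median log2 index change in *prmt5* was 0.38 for SR genes, 0.25 for other splicing and RNA-binding genes, 0.46 for clock, 0.81 for flowering, 0.76 for light and 0.27 for salt, cold and abscisic acid genes, beside 0.42 over all retained introns. In *prmt4a;4b* these medians were 0.05, 0.49, 0.16, 0.69, 0.52 and -0.05, beside 0.36. Counts of so few events, beside the 23.0% and 23.2% of all tested retained introns that rose in the mutants, show nothing particular to a list. The 20 serine/arginine-rich (SR) splicing factor genes held 4, and 1 of 4 tested rose in *prmt5* and 0 of 3 in *prmt4a;4b*. The one that rose was in *RS2Z33*, which encodes an SR protein and had an index of 0.0439, 0.0237 and 0.0436 in WT and 0.0536, 0.0790 and 0.0684 in *prmt5* for E005. That call was lost without WT replicate 2 (edgeR, adjusted p = 0.18). In the other splicing and RNA-binding genes 1 of 3 tested events rose in each mutant, and an event of *GRP7*, a clock-controlled glycine-rich RNA-binding protein, rose in both mutants. *GRP7* E002, 51 bases inside its glycine-rich stretch, had an index of 3.61, 2.93 and 3.27 in WT, 6.97, 4.74 and 5.52 in *prmt5*, with 7.77, 6.93 and 7.15 in *prmt4a;4b*. Its reads were up by 1.22 ± 0.22 (edgeR, adjusted p = 5.4e-04) in *prmt5* and 1.60 ± 0.18 (edgeR, adjusted p = 7.6e-06) in *prmt4a;4b*. Whether related genes share some of these reads was not tested. *SKIP*, a splicing factor that acts on clock transcripts, had an index for E002 of 1.15, 1.27 and 1.01 in WT and 0.531, 0.681 and 0.675 in *prmt4a;4b*, where it fell (edgeR, adjusted p = 0.012).

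Of the 9 retained introns in 23 clock genes, 8 were tested in *prmt5* and 1 rose, in *LHY*, a morning factor of the clock, and 1 of 7 tested rose in *prmt4a;4b*. The 5′ UTR intron E015 of *LHY* had 2, 2 and 3 reads in WT, 27, 9 and 21 in *prmt5*, with 4, 3 and 5 in *prmt4a;4b*, and the gene fell by 0.99 in *prmt5*. Its difference between the mutants was lost without *prmt5* replicate 1 or 3 or *prmt4a;4b* replicate 2 (adjusted p = 0.26, 0.21 and 0.22). The clock gene *AT3G54500* was called in *prmt4a;4b* for E009 at 1.21, 1.68 and 2.96 in WT and 4.45, 4.40 and 4.74 in *prmt4a;4b*, while the *prmt5* libraries had 4.16, 3.87 and 4.61 but the reads were not called and the gene fell. Of the 7 retained introns in 25 flowering-time genes, 1 of 6 tested rose in *prmt5* and 2 of 5 tested in *prmt4a;4b*. The event in *prmt5* was *FY* E021, in a 3′-end processing gene of the autonomous pathway, and was lost without WT replicate 1, where its log2 index ratio was 0.578. In *prmt4a;4b* they were *FY* E021 and E007 of *MAF1*, a floral repressor also known as *FLM*, at 0.0555, 0.172 and 0.556 in WT and 0.666, 0.888 and 0.628 in *prmt4a;4b*. The call of *MAF1* was lost without WT replicate 1 or *prmt4a;4b* replicate 2 (adjusted p = 0.20 and 0.17).

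Of the 26 light signaling genes, which held 6 retained introns, *PHOT2* held another event, E020, with 3, 4 and 1 reads in WT and 8, 7 and 11 in *prmt4a;4b*. *PHOT2* E020 was called there (edgeR, adjusted p = 0.066) and not without *prmt4a;4b* replicate 3 (adjusted p = 0.21). *HAB1* and *ABI2*, protein phosphatases 2C that repress abscisic acid signaling, held events called in opposite directions in *prmt5*. *HAB1* E007, in a 3′ UTR, had an index of 0.597, 0.769 and 0.282 in WT, 1.59, 1.31 and 1.33 in *prmt5*, with 1.22, 1.54 and 1.23 in *prmt4a;4b* and was called in both, although the call in *prmt5* (edgeR, adjusted p = 0.14) was lost when any *prmt5* library or WT replicate 1 or 3 was left out (adjusted p = 0.15 to 0.36). *ABI2* E002, which keeps the frame without a stop, had 1.60, 1.45 and 0.851 in WT and 0.481, 0.137 and 0.637 in *prmt5*, where it fell (edgeR, adjusted p = 0.042), and 0.427, 0.849 and 0.616 in *prmt4a;4b*, where it was not called. Without *prmt5* replicate 2 the call of *ABI2* was lost (adjusted p = 0.19). These were among 9 retained introns in 22 salt, cold and abscisic acid genes, of which 1 of 7 tested rose and 1 fell in *prmt5*, and 1 of 8 tested rose in *prmt4a;4b*. Of the 9 arginine methyltransferase genes 1 held a retained intron, which was not tested.

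Of the 5 retained introns with the highest WT index among well-read ones (over 60 bases, at least 500 WT reads and an index up to 1.2), 3 were not called in either mutant. *SAC52*, which encodes a ribosomal protein of the large subunit, had an index for the 171-base E003 of 1.2, 1.31 and 0.970 in WT, 1.01, 0.920 and 0.843 in *prmt5*, with 1.23, 1.45 and 1.43 in *prmt4a;4b*. *PORB*, a chlorophyll synthesis enzyme, had 1.12, 1.05 and 1.1 for E005 in WT and 0.654 to 0.776 in *prmt5*. *COR413-PM1*, a cold-regulated membrane protein gene, had 1.12, 1.03 and 1.26 in WT and 2.27 to 2.75 and 2.37 to 2.66 in the mutants, where the gene fell and the reads of E005 were not called. *AT1G25098* E004, which overlaps the gene AT1G25097, rose from 660, 692 and 643 reads in WT to 989, 1540 and 1057 in *prmt4a;4b*. Its index was 0.288, 0.25 and 0.354 in WT, 0.707, 0.639 and 0.633 in *prmt5*, with 0.618, 0.629 and 0.531 in *prmt4a;4b*, and in *prmt5*, where the index was highest, its 841, 931 and 661 reads were not called and the gene fell by 1.04. *NIT1* was given above.

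The 4 genes with the most retained introns, *AT1G68080*, *AT3G13080* (*ABCC3*), *AT4G03205* and *AT5G55550*, held 4 each. Many of these 16 events were too poorly read to be tested. E010 of *AT4G03205* was called higher in *prmt4a;4b* (edgeR, adjusted p = 0.15) and E006 higher in *prmt5* than in *prmt4a;4b* (edgeR, adjusted p = 0.13). The largest change among them was in *AT5G55550*, whose 5′ UTR intron E011 had a mean index of 0.0246 in WT, 0.464 in *prmt5* and 0.449 in *prmt4a;4b*. It was called in both mutants, with log2 increases of 3.97 and 3.80 (edgeR, adjusted p = 0.021 and 0.022).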

How the data were processed

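Per the study's methods, TopHat2 2.0.9 alignments to TAIR10 were counted by the authors per gene, AS bin and intron with their own R code, and the deposited counts are whole numbers without normalization. The libraries came from 3 µg of total RNA, 12 PCR cycles and a kit that does not mark strand, with 100-base reads, so overlapping genes (67 retained introns) cannot be told apart. The deposited fold changes and FDR values of the authors were not used.

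The quasi-likelihood test of edgeR 4.0.16 (R 4.3.3) was applied to the counts of AS bins, introns and genes, with library sizes and TMM factors from gene counts and Benjamini-Hochberg adjustment over all features of a table. Each mutant was fitted with WT, and the mutants were compared in 1 fit over the 9 libraries. The log2 index ratio was taken between means of log2 values with 0.5 reads added to the bin. Genes needed a mean of 10 reads. The script was tested on simulated data. Sequence, position and reading frame came from the RefSeq annotation, with 2123 of 2230 retained introns matching an intron exactly, and 118854 of 120457 other introns on TAIR10 coordinates ended in GT-AG. Events were named by rule: per mutant the 8 largest increases and 5 largest decreases of the index among calls with a mean of at least 50 reads and no overlap of libraries, 5 in each direction between the mutants, called events in gene lists and in genes of the study's text, the 5 highest in WT, and the genes with the most events. Members and lists were chosen with earlier results of these data known. One list gene whose symbol the reference does not give was left out. Alternatives were other size factors, DESeq2 1.42.0, filters, offsets, leaving out libraries and a replicate block. Python 3.11.15, numpy 2.4.6, pandas 2.3.3 and matplotlib 3.10.9 were used.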

Additional observations from a re-analysis of the deposited data

Results flagged for a closer look

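Of the 43 named retained introns, 18 differed between the mutants in the direct edgeR test of *prmt5* against *prmt4a;4b*. This count describes how the events were chosen, since that test and large changes in a single mutant helped to name them. Of all 1210 retained introns tested, 109 (9.01%) were called higher in *prmt5* and 37 (3.06%) lower. In 11 of them reads were higher in *prmt5*, by 6.28 in *APL* E006, 5.39 in *PHOT2* E024, 5.17 in *AT1G24510* E009, 4.45 in *CER1* E005, 4.28 in *AT5G40810* E003, 3.79 in *YAB3* E007, 3.45 in *GLX2-1* E009, 3.02 in *AT2G35390* E008, 1.91 in *LHY* E015, 0.90 in *AT3G53980* E003 and 0.84 in *AT5G61910* E007 on the log2 scale. In 7 of them the log2 difference was negative, at -2.35 in *AT5G63370* E003, -1.59 in *AT4G38520* E005, -1.41 in *MAF1* E007, -1.16 in *AT4G19160* E003, -0.75 in *NIT1* E007, -0.73 in *AT3G24080* E003 and -0.64 in *AT3G51370* E003. The events of *APL*, *AT1G24510*, *CER1*, *AT5G40810* and *YAB3* had a mean index under 0.05 in *prmt4a;4b*. Those of *PHOT2* (6, 1 and 5 reads) and *LHY* (4, 3 and 5 reads) averaged under 5 reads in *prmt4a;4b*. All of these entered this test through *prmt5* and could only be higher in *prmt5*. The adjusted p-values of *AT5G61910*, *AT3G51370*, *MAF1* and *LHY* (0.13, 0.13, 0.11 and 0.069, edgeR) passed the limit of 0.15 and not one of 0.05. Those of *AT5G61910* and *AT3G51370* were also lost with a replicate block (0.16 and 0.17) and without *prmt5* replicate 2 or 3, and *MAF1* was lost without *prmt5* replicate 2 or 3 or *prmt4a;4b* replicate 2 or 3 (0.19 to 0.31).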

How the results depend on the processing

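The counts of retained introns called stayed within 1.5 times their main value under most settings. With an adjusted p under 0.05 the increases in *prmt4a;4b* were 160 in place of 253, and the direct comparison gave 64 and 18 in place of 109 and 37. Leaving out single libraries gave 220 to 323 increases and 51 to 92 decreases in *prmt5*, 195 to 284 and 61 to 92 in *prmt4a;4b*, and 76 to 117 and 21 to 53 between the mutants, where the lowest values (21 and 22) came without *prmt5* replicate 3 and without *prmt4a;4b* replicate 3. The mean log2 index change over events in *prmt5* was 0.60, where the median was 0.42. The median over events with at least 20 reads was 0.31 in *prmt5* and 0.26 in *prmt4a;4b*. Leaving out single libraries gave medians of 0.36 to 0.46 and 0.31 to 0.43, with 0.43 reached without *prmt4a;4b* replicate 1. The cause of these shifts was not tested, apart from fewer events passing a stricter limit. Of 74 calls of named events, 58 held under every setting in which they were tested and none reversed. Only 70 of the 74 were tested with densities over the width plus the read length, where *PMDH2* E003 in both mutants and *RS2Z33* E005 and *AT4G38520* E005 in *prmt5* were not. With a mean of at least 20 reads 71 were tested, without *LHY* E015 in both its comparisons and *PHOT2* E020 in *prmt4a;4b*. Calls that were lost most often were those of *AT5G61910* and *AT3G51370* between the mutants and *HAB1* in *prmt5*.

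Samples with the same replicate number did not deviate together in every pair, so the numbers alone do not pair them. Over genes, deviations from the genotype mean correlated at 0.201 between replicate 2 of *prmt5* and of *prmt4a;4b*. They did so at 0.194 between *prmt5* 1 and *prmt4a;4b* 3, and at 0.190 between *prmt5* 3 and *prmt4a;4b* 1. A block by replicate number does not take up the latter pairs, and their cause was not tested. With a replicate block 257 and 66 events were called in *prmt5*, 246 and 71 in *prmt4a;4b*, and 102 and 35 between the mutants. Chosen after seeing the data, a fit without *prmt5* replicate 1 and *prmt4a;4b* replicate 3, the library of each mutant richest in plastid reads, gave 225 and 59, 250 and 81, and 80 and 35. Low read numbers limit the set: 959 of the 2230 retained introns could not be tested.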
